A study of Mus musculus with 4 samples.

Results

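Transcripts of 43 mitosis genes were followed in mouse embryonic stem cells depleted of Exosc3, which belongs to the core of the RNA exosome. The set was given by gene symbol and held cyclins, kinases and phosphatases, the spindle checkpoint and the chromosomal passenger complex. It also held the centromere and kinetochore, mitotic kinesins and spindle factors, and factors of anaphase, chromosome structure and cytokinesis. Of the 43 symbols 40 had a row among the 22883 rows of the table, each with 1 row, and Ccna2, Cdc20 and Kif20a had no row under those symbols. All 40 passed the filter on low values, a mean of at least 0.5 FPKM over the 4 libraries, which left 9336 rows for testing. FPKM is the number of sequenced fragments per kilobase of gene model, scaled to the library's total, so levels can be compared between genes.

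The cells were clones of the V6.5 embryonic stem cell line with a conditional knockout of Exosc3, grown without feeder cells, and all 4 libraries carried this genotype. Exosc3-depleted cells (2 libraries) had been kept without doxycycline for 3 days, and Exosc3-present cells (2 libraries) stayed in 0.1 µg/ml doxycycline for the same 3 days. Doxycycline and Exosc3 therefore changed together, and the effects of either cannot be told apart. Total RNA was depleted of ribosomal RNA and made into stranded paired-end libraries. The labels do not say whether replicates came from separate cultures or clones, so p-values measure only the spread between these libraries, which may be technical.

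In the RNA exosome, Exosc3 helps to form the cap through which RNA enters the complex for 3′-to-5′ decay. Many mitotic genes form a timed programme: their RNAs accumulate in G2 phase and mitosis and are low in G1 phase. In many of their promoters a CHR element and CCAAT boxes are known to carry this timing, through the B-Myb, MuvB and FoxM1 activators and the DREAM repressor. Mouse embryonic stem cells are known to divide rapidly with a short G1 phase, and such genes are abundant in them.

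Exosc3 itself had 0.635 and 0.691 FPKM in Exosc3-depleted libraries, against 24.2 and 23.2 FPKM in Exosc3-present libraries (log2 fold change -4.38, SE 0.18, limma adjusted p = 1.29e-04), so all 4 libraries matched their labels. Library totals, recovered from the spacing of the FPKM values, were 38095698 and 41968325 fragments in the Exosc3-depleted group and 60851774 and 55233386 in the Exosc3-present group. Of these, 42.4% and 44.0% lay in listed gene models in Exosc3-depleted libraries, against 49.7% and 51.8% in Exosc3-present libraries. FPKM is scaled to the total, so listed models together took a smaller part of it in both Exosc3-depleted libraries. How much this added to the fold changes was not tested. The stem cell gene Pou5f1 stood at 413 and 286 FPKM in Exosc3-depleted libraries and at 471 and 434 FPKM in Exosc3-present libraries, which fits the labelled cell type; Sox2, Nanog and Sall4 were not analysed here. Of 6 tested stem cell markers 5 fell, where 30.1% of all tested rows did, and their summed level was 1255 to 1895 FPKM in Exosc3-depleted libraries and 3042 to 3055 FPKM in Exosc3-present libraries. Of 6 tested primitive endoderm markers all 6 rose, where 12.6% of all tested rows did (summed list level 127 to 133 FPKM in Exosc3-depleted against 41.7 to 48.1 FPKM in Exosc3-present libraries). Most of that sum was Sparc and Col4a1, at means of 85.5 and 39.0 FPKM in Exosc3-depleted cells. Gata6, Gata4, Sox17 and Pdgfra averaged 1.23, 1.82, 0.902 and 0.735 FPKM there, and the groups overlapped for untested Sox7. Of 4 tested trophectoderm markers 3 rose, the keratin genes Krt7, Krt8 and Krt18 (summed list level 90.8 to 122 FPKM in Exosc3-depleted against 22.8 to 25.1 FPKM in Exosc3-present libraries). The trophectoderm factor Eomes fell, from a mean of 0.811 FPKM in Exosc3-present to 0.379 FPKM in Exosc3-depleted cells. It did not pass after median-of-ratios scaling (limma adjusted p = 0.0662). Cdx2, Elf5 and Gata3 were too low to be tested. Cdx2 had 0.245 and 0.156 FPKM in Exosc3-depleted libraries, against 0.0230 and 0.0169 FPKM in Exosc3-present libraries. Gata3 had 0.0980 and 0.126 FPKM, against 0 and 0.00563 FPKM. Elf5 was at 0 in both Exosc3-depleted libraries, against 0.0371 and 0.0163 FPKM. The fibroblast list summed to 1.74 to 2.74 FPKM in Exosc3-depleted and 2.91 to 3.06 FPKM in Exosc3-present libraries, with Dcn, Lum and Postn at 0 in all 4; of its 3 tested genes Twist1 rose and Thy1 fell. The part of these marker changes in the results on mitosis was not tested.

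Most of the mitotic genes were lower in Exosc3-depleted cells. Of 40 tested genes 26 fell (65.0%) and none rose, also at an unadjusted p under 0.05 (0 genes) and by limma-voom on recovered fragments (0), whereas 30.1% of all tested rows fell and 12.6% rose at the same threshold (limma, Benjamini-Hochberg adjusted p under 0.05 over all 9336 rows). The median log2 fold change was -0.98 over the mitotic genes and -0.27 over all tested rows. All 40 had a negative log2 fold change, between -1.68 for Cdc25a and -0.23 for Ndc80, as had 66.6% of all tested rows. Of the 40, 39 lay below the median row. Under some other scalings the sign changed for Ndc80 and Bub3. Summed over the 40 genes, the level was 551 and 633 FPKM in Exosc3-depleted libraries, against 1131 and 1261 FPKM in Exosc3-present libraries, or 49.5% of the Exosc3-present mean. In bulk RNA, fewer cells in mitosis and less of these RNAs in each cell cannot be told apart.

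For 36 of the 40 genes both Exosc3-depleted libraries lay below both Exosc3-present libraries, as they did in 50.9% of all tested rows. The exceptions, whose groups overlapped, were Cenpe, Ndc80, Kif11 and Ect2. Because the median row itself lay below 0, the libraries were also scaled by the median of ratios, which moved the median row to -0.06. On that scale 21 of the 40 genes fell and none rose, beside 19.8% of all rows lower and 17.4% higher. Of all called rows 46.7% were higher on that scale and 29.6% without it. Fewer of the 40 genes fell when Exosc3-present replicate 2 was left out, and so did fewer of all tested rows.

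**Figure D1:**
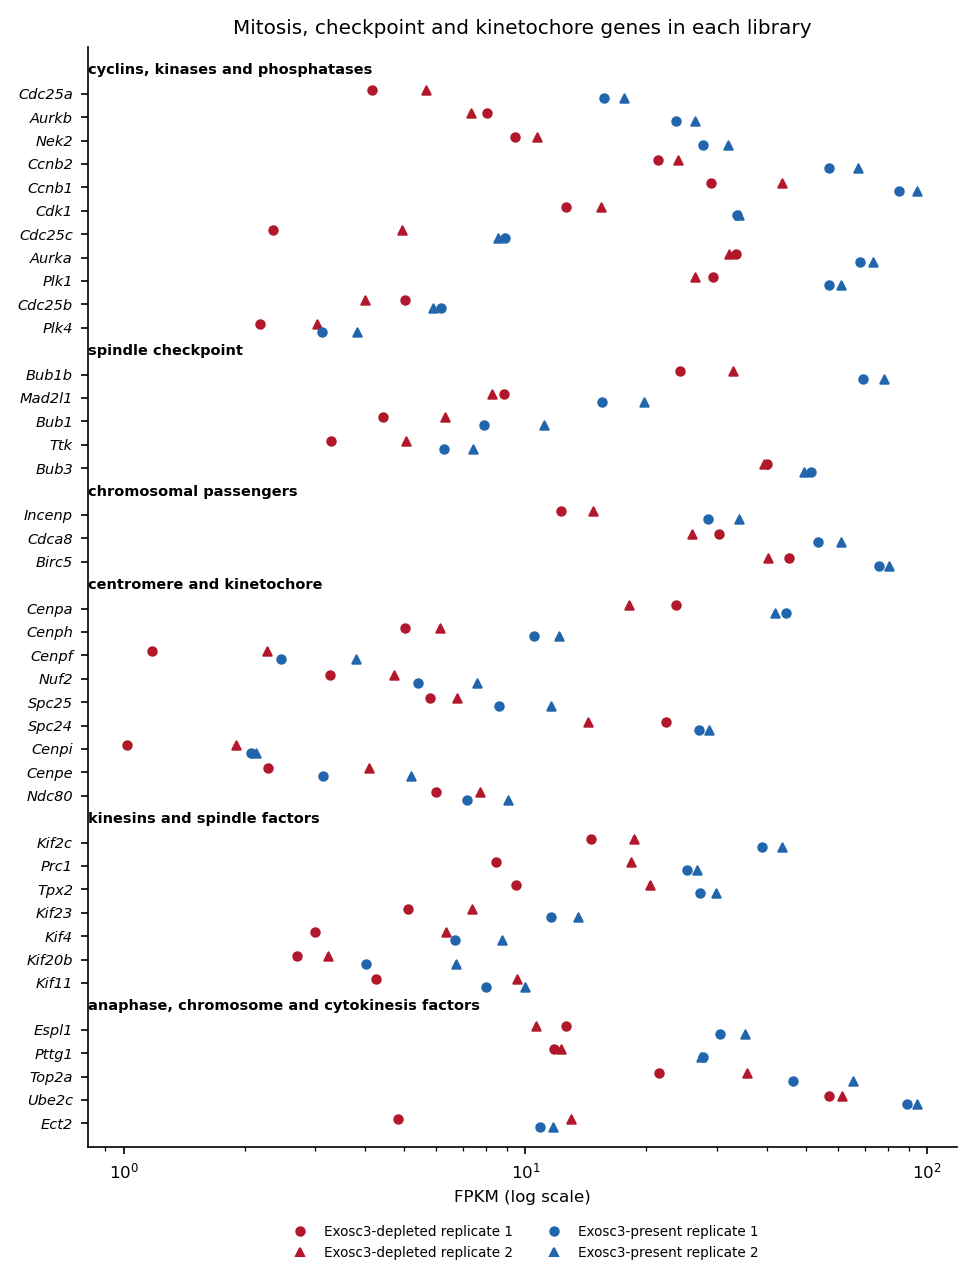
FPKM of the 40 mitotic genes with a row in each of the 4 libraries, on a log axis, grouped by role and ordered by fold change within a role; red marks are Exosc3-depleted and blue marks Exosc3-present libraries, circles replicate 1 and triangles replicate 2. Red marks lie left of blue ones for 36 genes, and overlap with them for Cenpe, Ndc80, Kif11 and Ect2.

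**Figure D2:**
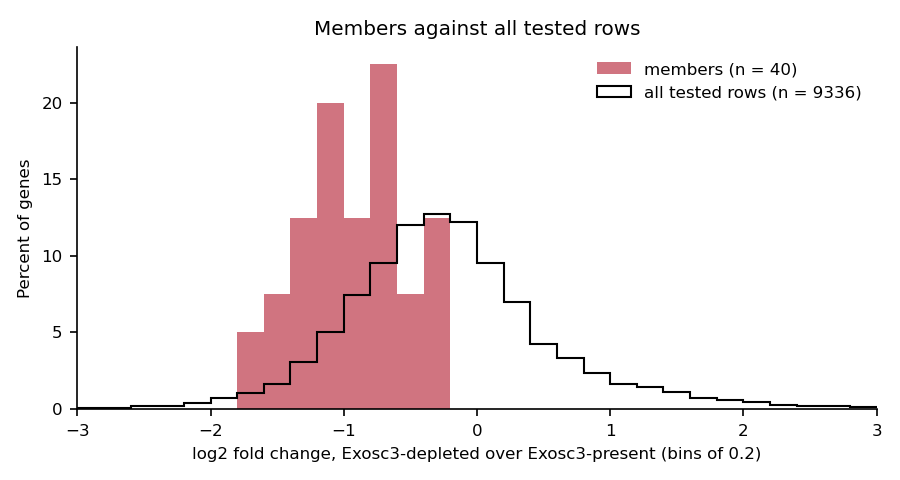
Share of genes, in percent, by log2 fold change (Exosc3-depleted over Exosc3-present) in bins of 0.2, for the 40 mitotic genes (red) and all 9336 tested rows (black line). The mitotic genes lie between -1.68 and -0.23, around a median of -0.98, and the median row is at -0.27.

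Since most of the genes moved the same way, their promoters are shown for a pair that fell clearly and the pair with the largest p among genes with a sequence at hand. RefSeq windows of 250 bases before to 50 bases after the start (build GRCm38.p6; the submitters' processing notes name mm9) were found by symbol for 36 of the 43 genes and for 27025 genes in all. Windows of Aurkb, Ccna2, Cdc25c, Incenp, Kif20a, Spc24 and Tpx2 are not shown. The windows below read 5′ to 3′ on the gene's strand, with capitals on each CHR element (TTTGAA) and each CCAAT box (CCAAT) on either strand; the 2 motifs share no letters in these windows. Ccnb2 (chr9:70421505-70421804, minus strand) holds 2 CHR elements, 1 of them starting 5 bases after the start, and 3 CCAAT boxes starting 87, 54 and 21 bases before it. Nek2 (chr1:191821223-191821522, plus strand) holds 2 CCAAT boxes and no CHR letters. Ndc80 (chr17:71526808-71527107, minus strand) holds 1 CHR element, on the other strand, and Cenpe (chr3:135212313-135212612, plus strand) 1 CCAAT box.
Ccnb2: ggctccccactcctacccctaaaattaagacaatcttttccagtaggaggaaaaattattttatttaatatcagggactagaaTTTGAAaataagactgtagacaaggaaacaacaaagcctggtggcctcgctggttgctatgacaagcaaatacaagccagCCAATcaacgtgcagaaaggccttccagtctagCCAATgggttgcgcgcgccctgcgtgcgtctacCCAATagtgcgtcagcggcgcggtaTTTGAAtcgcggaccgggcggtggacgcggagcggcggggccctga
Nek2: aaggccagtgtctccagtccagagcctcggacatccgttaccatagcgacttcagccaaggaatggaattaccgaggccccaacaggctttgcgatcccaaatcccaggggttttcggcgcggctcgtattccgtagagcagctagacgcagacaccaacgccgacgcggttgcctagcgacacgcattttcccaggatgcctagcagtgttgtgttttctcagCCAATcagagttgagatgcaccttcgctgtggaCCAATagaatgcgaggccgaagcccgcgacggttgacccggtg
Ndc80: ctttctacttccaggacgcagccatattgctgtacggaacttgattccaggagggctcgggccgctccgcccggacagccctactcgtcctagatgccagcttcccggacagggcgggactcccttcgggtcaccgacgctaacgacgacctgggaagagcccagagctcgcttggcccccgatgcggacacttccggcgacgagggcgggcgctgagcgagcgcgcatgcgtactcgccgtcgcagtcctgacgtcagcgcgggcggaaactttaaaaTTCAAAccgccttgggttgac
Cenpe: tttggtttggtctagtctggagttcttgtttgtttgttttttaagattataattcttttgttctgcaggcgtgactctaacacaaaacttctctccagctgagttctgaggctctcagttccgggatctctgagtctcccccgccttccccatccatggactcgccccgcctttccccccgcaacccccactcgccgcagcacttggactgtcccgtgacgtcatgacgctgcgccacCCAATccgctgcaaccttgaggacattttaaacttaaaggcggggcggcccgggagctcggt

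The CHR letters were found in 23 of the 36 windows (63.9%), against 20.2% of all 27025 genes, and CCAAT in 28 (77.8%), against 41.1%. Both together were found in 20 of 36 (55.6%), against 7.97%. Close to the start the difference was wider: a CHR element began within 50 bases of it in 22 of 36 genes (61.1%), against 5.72% of all genes, a window chosen after the values were seen. Among genes whose RNA fell, 14 of 22 held the CHR letters (63.6%), and among those that did not pass 8 of 13 did (61.5%). A match is a run of letters and not a shown binding site.

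Cyclins, kinases and phosphatases had the most negative median of the 6 role groups (log2 fold change -1.25). Of 11 tested genes 9 fell (81.8%, against 30.1% of all tested rows). After median-of-ratios scaling 9 fell as well, against 19.8% of all tested rows. Aurkb (uc007jpa.1), the kinase of the chromosomal passenger complex, had 8.02 and 7.32 FPKM in Exosc3-depleted libraries, against 23.7 and 26.5 FPKM in Exosc3-present libraries. Both depleted libraries lay far under both others, at 30.5% of the Exosc3-present mean (log2 -1.65, SE 0.18, adjusted p = 7.95e-04). Nek2 (uc007ecx.2), a kinase of centrosome separation whose promoter is given above, had 9.41 and 10.7 FPKM in Exosc3-depleted libraries, against 27.6 and 31.9 FPKM in Exosc3-present libraries (log2 -1.51, SE 0.18, adjusted p = 0.00118).

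The core of the mitotic engine, Cdk1 with B-type cyclins, fell as well. Cdk1 (uc007fmr.1) had 12.6 and 15.4 FPKM in Exosc3-depleted libraries, against 33.6 and 34.0 FPKM in Exosc3-present libraries (log2 -1.25, adjusted p = 0.00227). Ccnb1, cyclin B1, averaged 36.3 ± 10.4 FPKM in Exosc3-depleted and 89.8 ± 6.33 FPKM in Exosc3-present cells (SD, n = 2 each; log2 -1.32, adjusted p = 0.00409). Ccnb2, cyclin B2, averaged 22.7 ± 1.80 FPKM in Exosc3-depleted and 62.1 ± 7.19 FPKM in Exosc3-present cells (log2 -1.43, adjusted p = 0.00130). Both cyclins were thus at about the same share of their Exosc3-present level, 40.4% for Ccnb1 and 36.6% for Ccnb2.

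Of the other kinases, Aurka, which acts at the spindle poles, averaged 32.8 ± 0.853 FPKM in Exosc3-depleted and 70.7 ± 3.93 FPKM in Exosc3-present cells (log2 -1.10, adjusted p = 0.00243). Plk1, which acts throughout mitosis, averaged 27.8 ± 2.05 FPKM in Exosc3-depleted and 59.1 ± 2.78 FPKM in Exosc3-present cells (log2 -1.07, adjusted p = 0.00284). Plk4 (uc008pbo.1), the kinase that starts centriole duplication, had the largest p of the group, with 2.18 and 3.03 FPKM in Exosc3-depleted libraries and 3.11 and 3.82 FPKM in Exosc3-present libraries (log2 -0.36, SE 0.22, adjusted p = 0.223). Its groups did not overlap, but the gap was smaller than the spread within either group.

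The CDC25 phosphatases, which remove the inhibitory phosphates from Cdk1 and related kinases, differed in size of change. Cdc25a (uc009rsw.1) had 4.16 and 5.67 FPKM in Exosc3-depleted libraries, against 15.7 and 17.6 FPKM in Exosc3-present libraries, the most negative log2 fold change of all 40 genes (-1.68, SE 0.21, adjusted p = 0.00131). Cdc25c fell with a wide spread, 2.35 and 4.93 FPKM in Exosc3-depleted against 8.89 and 8.54 FPKM in Exosc3-present libraries (log2 -1.23, adjusted p = 0.0174; 0.112 with scaling without the 50 highest rows, and 0.0531 with no filter on low values). Cdc25b had 5.02 and 3.99 FPKM in Exosc3-depleted libraries, against 6.18 and 5.90 FPKM in Exosc3-present libraries, and did not pass (log2 -0.39, adjusted p = 0.147). The ratio of Cdc25a to Cdc25b was 0.829 and 1.42 in Exosc3-depleted libraries, against 2.54 and 2.98 in Exosc3-present libraries, so it was lower in both depleted libraries. The ratio of Aurkb to Aurka was likewise lower, 0.240 and 0.227 in Exosc3-depleted libraries against 0.350 and 0.361 in Exosc3-present libraries. For Ccnb2 over Ccnb1 the groups overlapped (0.742 and 0.550 in Exosc3-depleted, 0.669 and 0.713 in Exosc3-present libraries). With 2 libraries in each group the exact two-sided permutation test cannot go below p = 0.333, which is the value for the first 2 of these 4 ratios compared and for Bub1b over Bub3, and p = 1.0 for the cyclins.

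**Figure D3:**
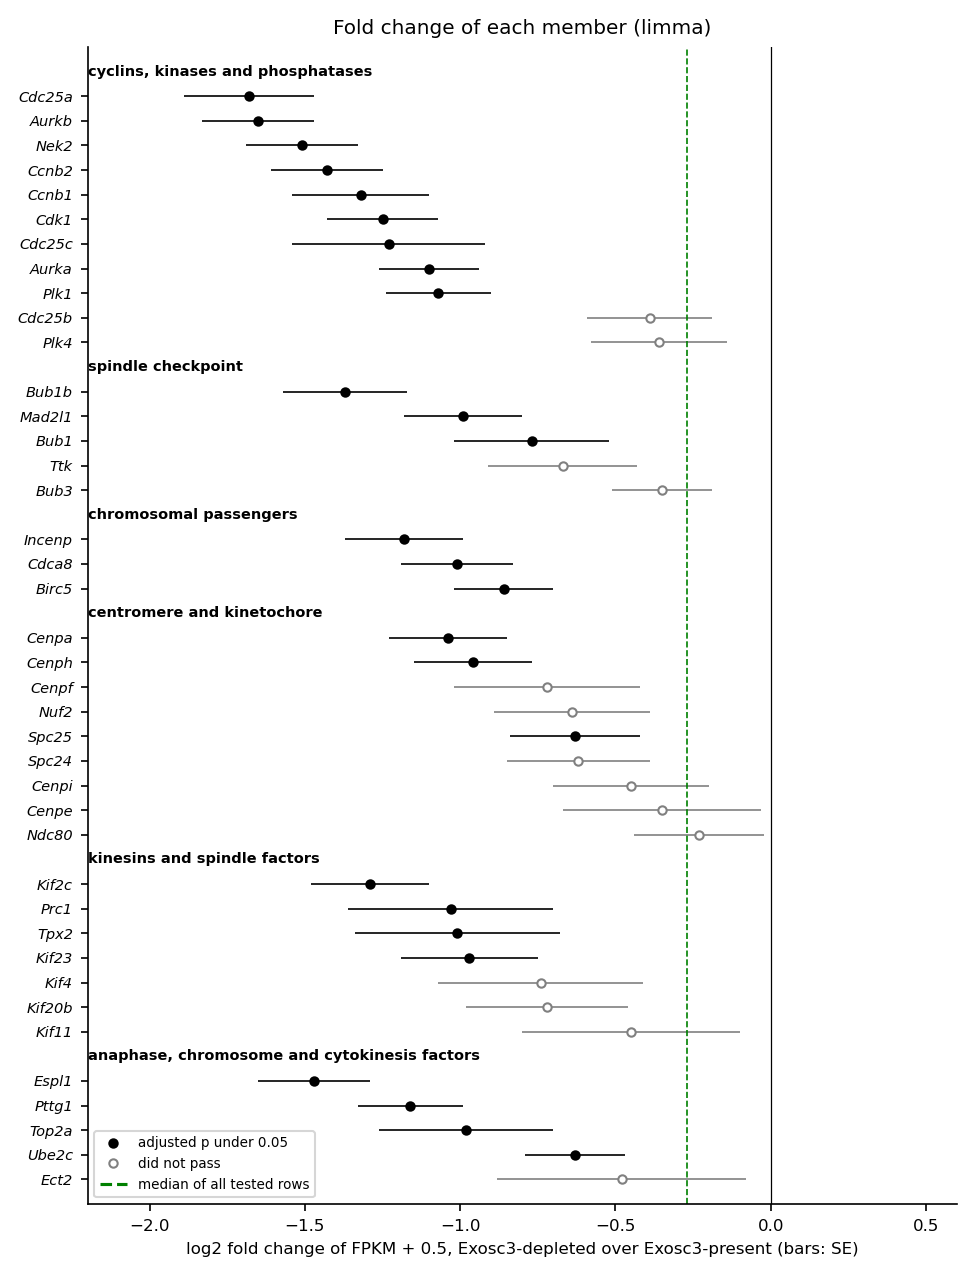
Log2 fold change of FPKM + 0.5 (Exosc3-depleted over Exosc3-present) of each mitotic gene with its standard error; filled points passed at an adjusted p under 0.05 and open points did not, and the dashed line is the median of all tested rows (-0.27). All 40 points lie left of 0, and 9 of 11 in the group of cyclins, kinases and phosphatases are filled, against 3 of 9 in the centromere and kinetochore group.

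The spindle checkpoint holds back anaphase until every kinetochore is attached. Of its 5 tested genes 3 fell (60.0%, against 30.1% of all tested rows), with a median log2 fold change of -0.77. After median-of-ratios scaling 2 fell (40.0%, against 19.8% of all tested rows). Bub1b (uc008lse.2), which encodes the checkpoint protein BubR1, had 24.2 and 32.9 FPKM in Exosc3-depleted libraries, against 69.1 and 78.2 FPKM in Exosc3-present libraries (log2 -1.37, SE 0.20, adjusted p = 0.00250). Mad2l1 (uc009cen.1), the Mad2 protein that inhibits Cdc20, had 8.84 and 8.26 FPKM in Exosc3-depleted libraries, against 15.5 and 19.7 FPKM in Exosc3-present libraries (log2 -0.99, SE 0.19, adjusted p = 0.00682), and both depleted values lay below both others. Bub1, the kinase that recruits the others, was at 5.36 ± 1.34 FPKM in Exosc3-depleted and 9.50 ± 2.30 FPKM in Exosc3-present cells and passed narrowly (log2 -0.77, adjusted p = 0.0435), and not after median-of-ratios scaling (0.0851) or without Exosc3-present replicate 1 or 2 (0.0754 and 0.432). Ttk, the upstream Mps1 kinase, did not pass (log2 -0.67, adjusted p = 0.0582).

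Bub3 (uc009kbq.1), the WD-repeat partner of Bub1 and BubR1, had 39.9 and 39.3 FPKM in Exosc3-depleted libraries, against 51.5 and 49.5 FPKM in Exosc3-present libraries, and did not pass (log2 -0.35, SE 0.16, adjusted p = 0.121). Its log2 fold change was close to the median row and was 0.06 after quantile normalization. The ratio of Bub1b to Bub3 was 0.605 and 0.836 in Exosc3-depleted libraries, against 1.34 and 1.58 in Exosc3-present libraries. Fewer checkpoint genes fell without Exosc3-present replicate 2, and more without Exosc3-depleted replicate 1. Over all tested rows the numbers moved the same way. The log2 fold change of Mad2l1 was -0.83 without Exosc3-present replicate 2.

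All 3 genes of the chromosomal passenger set fell, where 30.1% of all tested rows did (median log2 fold change -1.01). With Aurkb they encode the complex that corrects wrong attachments and steers cytokinesis. Incenp (uc008gos.2), its scaffold, had 12.3 and 14.7 FPKM in Exosc3-depleted libraries, against 28.5 and 34.0 FPKM in Exosc3-present libraries (log2 -1.18, SE 0.19, adjusted p = 0.00328). Cdca8 (uc008urj.2), which encodes borealin, had 30.3 and 26.0 FPKM in Exosc3-depleted libraries, against 53.5 and 60.9 FPKM in Exosc3-present libraries (log2 -1.01, SE 0.18, adjusted p = 0.00450). Birc5 (uc007mod.1), which encodes survivin, had 45.2 and 40.2 FPKM in Exosc3-depleted libraries, against 75.7 and 80.4 FPKM in Exosc3-present libraries (log2 -0.86, SE 0.16, adjusted p = 0.00626). No library of either group came near the other group in these 3 genes. Birc5 did not pass after median-of-ratios scaling (adjusted p = 0.0604) or without Exosc3-present replicate 1 (0.0564), and when replicate 2 of that group was left out neither Birc5 (0.0983) nor Cdca8 (0.0680) did, which left Incenp.

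Centromere and kinetochore genes had the smallest shift of the groups, with 3 of 9 lower, a share of 33.3% near that of all tested rows, and a median log2 fold change of -0.63. Cenpa (uc008wvt.1), the histone H3 variant that marks centromeres, had 23.7 and 18.1 FPKM in Exosc3-depleted libraries, against 44.5 and 41.9 FPKM in Exosc3-present libraries (log2 -1.04, SE 0.19, adjusted p = 0.00558). Cenph (uc007rrn.1), of the constitutive inner kinetochore, had 5.02 and 6.13 FPKM in Exosc3-depleted libraries, against 10.5 and 12.1 FPKM in Exosc3-present libraries (log2 -0.96, SE 0.19, adjusted p = 0.00793). Cenpi, another inner kinetochore gene, had 1.02 and 1.90 FPKM in Exosc3-depleted and 2.07 and 2.13 FPKM in Exosc3-present libraries and did not pass (log2 -0.45, adjusted p = 0.185). The inner kinetochore pair thus differed in call, but the difference between them was not tested.

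The NDC80 complex, the 4-subunit rod that grips microtubules, is covered whole. Ndc80 (uc008dmk.2) had 5.99 and 7.73 FPKM in Exosc3-depleted libraries and 7.15 and 9.05 FPKM in Exosc3-present libraries, with overlapping groups and the largest p of all 40 genes (log2 -0.23, SE 0.21, adjusted p = 0.430). Its partner Nuf2 had 3.26 and 4.70 FPKM in Exosc3-depleted and 5.41 and 7.57 FPKM in Exosc3-present libraries (log2 -0.64, adjusted p = 0.0750). Spc24 had 22.4 and 14.3 FPKM in Exosc3-depleted and 27.0 and 28.6 FPKM in Exosc3-present libraries (log2 -0.62, adjusted p = 0.0711). Spc25 passed at the margin (log2 -0.63, adjusted p = 0.0487), and did not after median-of-ratios scaling (0.171), by limma-voom on recovered fragments (0.0615) or without Exosc3-present replicate 1 or 2 (0.150 and 0.547). None of the 4 subunit genes therefore fell under every setting, and the log2 fold change of Ndc80 was 0.00 after median-of-ratios scaling and 0.10 with scaling without the 50 highest rows.

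Both large outer kinetochore proteins of the set spread widely within each group. Cenpe, a kinetochore motor, had 2.29 and 4.08 FPKM in Exosc3-depleted and 3.13 and 5.20 FPKM in Exosc3-present libraries (log2 -0.35, SE 0.32, adjusted p = 0.410). Cenpf had 1.18 and 2.28 FPKM in Exosc3-depleted and 2.46 and 3.79 FPKM in Exosc3-present libraries (log2 -0.72, SE 0.30, adjusted p = 0.0919). Replicate 2 was the higher library in each pair. More kinetochore genes fell without Exosc3-depleted replicate 2, as did more of all tested rows. Fewer fell without an Exosc3-present library, in this group and over all tested rows, and only Cenpa of the group fell under every setting run. The log2 fold change of Cenph was -1.06 without Exosc3-present replicate 1 and -0.86 without replicate 2 of that group.

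Kinesins and spindle factors include the motors that separate the poles, align chromosomes and organise the midzone. Of 7 tested genes 4 fell (57.1%, against 30.1% of all tested rows), with a median log2 fold change of -0.97. Kif2c (uc008uie.2), the microtubule depolymerase MCAK, had 14.6 and 18.6 FPKM in Exosc3-depleted libraries, against 38.8 and 43.4 FPKM in Exosc3-present libraries (log2 -1.29, SE 0.19, adjusted p = 0.00248). Kif23 (uc009pzu.2), the central spindle motor MKLP1, had 5.10 and 7.37 FPKM in Exosc3-depleted libraries, against 11.6 and 13.5 FPKM in Exosc3-present libraries (log2 -0.97, SE 0.22, adjusted p = 0.0130). In both genes the depleted libraries lay together below the others. Kif11 (uc008hin.1), the bipolar motor Eg5, had 4.25 and 9.51 FPKM in Exosc3-depleted libraries and 8.0 and 9.99 FPKM in Exosc3-present libraries (log2 -0.45, SE 0.35, adjusted p = 0.327), so depleted replicate 2 lay inside the range of the Exosc3-present libraries.

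The same split ran through the spindle assembly factor Tpx2 and the midzone bundler Prc1. Tpx2 had 9.45 and 20.4 FPKM in Exosc3-depleted libraries, against 27.2 and 29.9 FPKM in Exosc3-present libraries (log2 -1.01, SE 0.33, adjusted p = 0.0452). Prc1 had 8.46 and 18.3 FPKM in Exosc3-depleted libraries, against 25.3 and 26.7 FPKM in Exosc3-present libraries (log2 -1.03, SE 0.33, adjusted p = 0.0425). Neither passed with no filter on low values (adjusted p = 0.107 for Tpx2 and 0.103 for Prc1), with quantile normalization (0.143 and 0.124) or with scaling without the 50 highest rows (0.241 and 0.230). Tpx2 did not pass after median-of-ratios scaling either (0.0529). Without Exosc3-present replicate 2 the log2 fold change was -0.94 for Tpx2 and -0.99 for Prc1, and neither passed. Kif4 (log2 -0.74, adjusted p = 0.112) and Kif20b (-0.72, 0.0625) did not pass. With scaling without the 50 highest rows, 1 gene of the group (Kif2c) fell, beside 1330 of all 9336 tested rows, and Kif23 had an adjusted p of 0.0990. Fewer genes of the group fell without Exosc3-present replicate 2, and more without Exosc3-depleted replicate 2. Over all tested rows the numbers moved the same way. Kif4, Prc1, Cdc25b and Ube2c have exons that overlap a gene on the opposite strand in the GRCm38 annotation, and no source used here says whether counting used strand.

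Of 5 genes of anaphase, chromosome structure and cytokinesis 4 fell (median log2 fold change -0.98). Espl1 (uc007xvf.2), which encodes separase, the protease that cuts cohesin, had 12.6 and 10.6 FPKM in Exosc3-depleted libraries, against 30.5 and 35.3 FPKM in Exosc3-present libraries (log2 -1.47, SE 0.18, adjusted p = 0.00137). Pttg1 (uc011xth.1), which encodes securin, the inhibitor of separase, had 11.8 and 12.3 FPKM in Exosc3-depleted libraries, against 27.6 and 27.4 FPKM in Exosc3-present libraries (log2 -1.16, SE 0.17, adjusted p = 0.00222). The enzyme and its inhibitor were both lower in both depleted libraries, at 35.2% and 43.9% of the Exosc3-present mean. Top2a, the topoisomerase that untangles sister chromatids, averaged 28.5 ± 9.94 FPKM in Exosc3-depleted and 55.9 ± 13.4 FPKM in Exosc3-present cells (log2 -0.98, adjusted p = 0.0286; 0.167 without Exosc3-present replicate 2). Ube2c, the ubiquitin-conjugating enzyme of the anaphase-promoting complex, averaged 59.3 ± 3.14 FPKM in Exosc3-depleted and 92.0 ± 3.78 FPKM in Exosc3-present cells (log2 -0.63, adjusted p = 0.0183), and did not pass after median-of-ratios scaling (0.202) or without Exosc3-present replicate 1 or 2 (0.173 and 0.262). Ect2 (uc008oth.2), the RhoA exchange factor that sets the cleavage furrow, had 4.82 and 13.0 FPKM in Exosc3-depleted and 10.9 and 11.7 FPKM in Exosc3-present libraries (log2 -0.48, SE 0.40, adjusted p = 0.369), so its depleted libraries lay on either side of the others. With quantile normalization 2 of these 5 genes fell, Espl1 and Pttg1, beside 1782 of all 9336 tested rows. Fewer of the 5 also fell without Exosc3-present replicate 2, as did fewer of all tested rows.

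The Exosc3-depleted libraries differed from each other in a way that went with gene model length. In 6 of the 40 genes, Cdc25c, Kif4, Kif11, Tpx2, Prc1 and Ect2, depleted replicate 2 was at least 2-fold above depleted replicate 1 (15.0%), as in 7.27% of all tested rows, and no mitotic gene differed that much between the Exosc3-present libraries. Across the 40 genes the log2 ratio of replicate 2 to replicate 1 had a Spearman rho with model length of 0.56 in Exosc3-depleted and 0.49 in Exosc3-present libraries (across genes of the same libraries; 0.46 and 0.28 across all tested rows). The median ratio was 1.0 in Exosc3-depleted and 1.10 in Exosc3-present libraries for 14 mitotic genes with models under 2000 bases, and 1.65 and 1.34 for the 10 with models of at least 4000 bases. Of the short genes 12 fell (85.7%, against 33.5% of all tested rows of that length), and of the long ones 4 (40.0%, against 24.3%). Model length and log2 fold change had a Spearman rho of 0.07 across the 40 genes and 0.02 across all tested rows. After a smooth trend on model length had been removed from each library, an alternative chosen after seeing the data, 24 of the 40 genes fell and none rose. Beside them 21.3% of all rows were lower and 22.6% higher. That step also centred each library, which moved the median row from -0.27 to 0.00. In these counts, length and centring cannot be told apart.

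**Figure D4:**
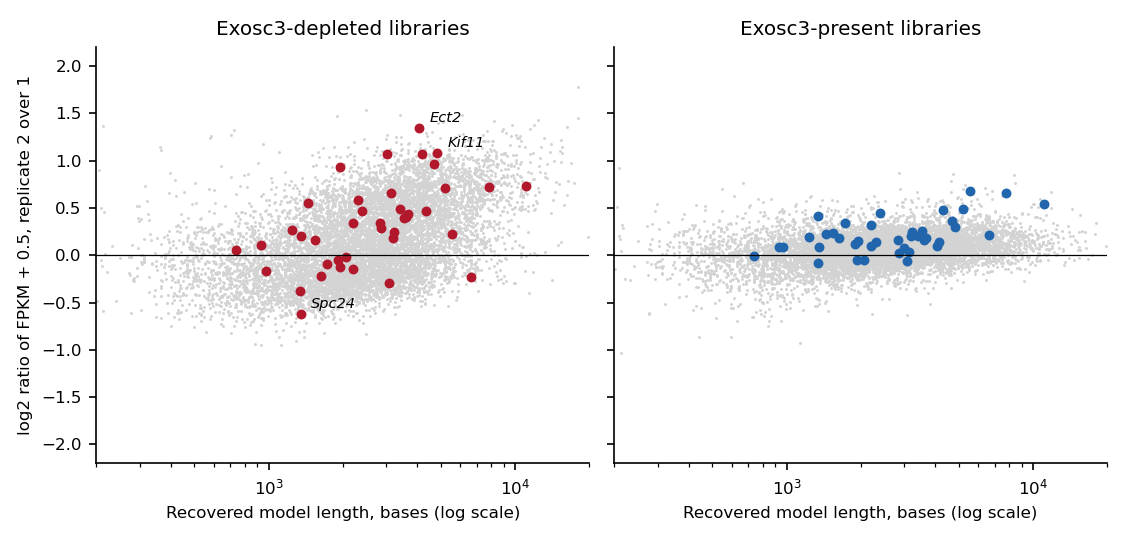
Log2 ratio of FPKM + 0.5 in replicate 2 over replicate 1 against recovered model length in bases (log axis), for all 9336 tested rows (gray) and the 40 mitotic genes (colour), in Exosc3-depleted (left) and Exosc3-present libraries (right). Long models lie higher in both panels and the spread is wider on the left; Ect2 and Kif11 are among the highest mitotic genes there and Spc24 is the lowest.

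The 40 genes had between 122 (Cenpi, Exosc3-depleted replicate 1) and 18837 fragments (Top2a, Exosc3-present replicate 2) in a library. Of the 26 genes that fell, those called lower under all 16 other settings run, left-out libraries included, were Cdk1, Ccnb1, Ccnb2, Aurka, Aurkb, Plk1, Nek2, Cdc25a, Bub1b, Incenp, Cenpa, Kif2c, Espl1 and Pttg1. The share of all tested rows called lower under every setting was not counted, so theirs cannot be read against it.

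Other genes of mitosis were counted in 8 lists, each beside the 30.1% of all tested rows that fell, the 12.6% that rose and their median log2 fold change of -0.27; differences between lists were not tested. Of 13 tested regulators of the FoxM1, B-Myb and DREAM system 8 fell (61.5%) and none rose (median log2 fold change -0.70). With scaling without the 50 highest rows 4 fell, beside 1330 of all 9336 tested rows. Fewer fell without an Exosc3-present library, as did fewer of all tested rows. The list was mixed: Lin52 fell (log2 -0.65, adjusted p = 0.0238), and Lin9 (-0.16), Lin37 (0.11) and Lin54 (-0.25) did not pass. Mybl2, which encodes B-Myb, had 84.0 and 76.8 FPKM in Exosc3-depleted libraries, against 236 and 229 FPKM in Exosc3-present libraries (log2 -1.53, adjusted p = 6.82e-04). E2f8, a repressor of the E2F family, had 1.61 and 2.14 FPKM in Exosc3-depleted libraries, against 8.52 and 9.03 FPKM in Exosc3-present libraries (log2 -1.97, adjusted p = 6.58e-04). Foxm1, Rbbp4, E2f5, Rb1 and Rbl2 had no row under those symbols.

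Of 19 other centromere and kinetochore genes 5 fell (26.3%) and 3 rose (15.8%), shares near those of all tested rows, with a median log2 fold change of -0.33. Ska1, a subunit of the complex that tracks microtubule ends, fell (1.54 ± 0.0372 FPKM in Exosc3-depleted and 3.66 ± 0.166 FPKM in Exosc3-present cells, log2 -1.03, adjusted p = 0.00437), though not without Exosc3-present replicate 1 or 2 (0.0704 and 0.0550). Cenpt, the inner kinetochore protein that recruits the NDC80 complex, rose, with 78.0 and 68.6 FPKM in Exosc3-depleted libraries, against 34.8 and 38.5 FPKM in Exosc3-present libraries (log2 0.99, SE 0.17, adjusted p = 0.00419). Zwint, an outer kinetochore protein (log2 0.81, adjusted p = 0.0168), and the centromere DNA-binding protein Cenpb (0.64, 0.0257) also rose. Fewer genes of this list passed in either direction without an Exosc3-present library, and more fell without Exosc3-depleted replicate 2. Over all tested rows the numbers moved the same way.

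Of 25 other spindle and motor genes 10 fell (40.0%, against 30.1% of all tested rows) and 3 rose (12.0%, against 12.6%), with a median log2 fold change of -0.40. Kif22, a chromokinesin, fell (22.4 ± 1.36 FPKM in Exosc3-depleted and 54.0 ± 4.23 FPKM in Exosc3-present cells, log2 -1.25, adjusted p = 0.00174), and so did Haus4 of the augmin complex (log2 -1.28, adjusted p = 0.00385). Kif18b, a plus-end motor, rose, with 30.4 and 31.9 FPKM in Exosc3-depleted libraries, against 16.6 and 18.3 FPKM in Exosc3-present libraries (log2 0.82, SE 0.17, adjusted p = 0.00836). Ckap2, a spindle microtubule protein (log2 0.85, adjusted p = 0.0226), and the minus-end motor Kifc1 (0.63, 0.0347), which has a near-identical copy so that its share is uncertain, also rose. The 3 genes that rose did not keep their calls without an Exosc3-present library, and fewer genes fell without replicate 2 of that group. With scaling without the 50 highest rows 4 of the 25 fell, beside 1330 of all 9336 tested rows. More of the 25 rose without Exosc3-depleted replicate 1, and more fell without replicate 2 of that group. With each library left out, the numbers over all tested rows moved the same way.

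The shares that fell among genes of the anaphase-promoting complex (26.7%), condensin and cohesin (26.3%) and cytokinesis (33.3%) were near the 30.1% of all tested rows. Of 15 genes of the anaphase-promoting complex and its partners 4 fell, led by Fbxo5, which encodes the inhibitor Emi1 (5.65 ± 1.52 FPKM in Exosc3-depleted and 18.1 ± 0.171 FPKM in Exosc3-present cells, log2 -1.62, adjusted p = 0.00177), and the subunit gene Anapc5 (log2 -1.09, adjusted p = 0.00281). With quantile normalization 2 of the 15 fell, beside 1782 of all 9336 tested rows, and more fell without Exosc3-depleted replicate 2. Of 19 condensin and cohesin genes 5 fell, led by Cdca5, which encodes sororin (log2 -0.90, adjusted p = 0.00653), and the cohesin acetyltransferase gene Esco2 (-1.28, 0.00834). The calls of these genes were lost without Exosc3-present replicate 2. More condensin and cohesin genes fell without Exosc3-depleted replicate 2, and some rose without replicate 1 of that group. Of 12 cytokinesis genes 4 fell, led by Sept9, a septin (-1.50, 0.00102), and Racgap1, the partner of MKLP1 in centralspindlin (-1.25, 0.00284), and Pdcd6ip, the abscission factor ALIX, rose (0.89, 0.00875). Without an Exosc3-present library fewer of the 12 fell and Pdcd6ip did not pass. More fell without Exosc3-depleted replicate 2, and more rose without replicate 1 of that group. Of 9 centriole and centrosome genes 1 fell (11.1%), Cep55 (-0.96, 0.0324), beside Cetn2, which did not pass (-0.54, 0.0632). Cep55 did not pass without an Exosc3-present library, and more of the 9 fell without an Exosc3-depleted one. In all 4 lists these numbers moved with each library left out as they did over all tested rows.

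Of 8 tested regulators of mitotic entry and exit, most of them phosphatase subunits and their inhibitors, 0 were called by limma and 0 by limma-voom, with 1 higher and 0 lower at an unadjusted p under 0.05. More of the 8 were called in both directions without Exosc3-depleted replicate 2, as were more of all tested rows. Ensa, an inhibitor of the phosphatase PP2A, had 18.7 ± 0.539 FPKM in Exosc3-depleted and 13.7 ± 0.511 FPKM in Exosc3-present cells (log2 0.44, adjusted p = 0.0739). It was called higher after median-of-ratios scaling (log2 0.68, adjusted p = 0.0289) and with the length trend removed (0.75, 0.00574), and its adjusted p ran between 0.00574 and 0.520 over all settings run. Ppp1cc, a catalytic subunit of PP1, had 59.7 ± 12.1 FPKM in Exosc3-depleted and 77.6 ± 0.389 FPKM in Exosc3-present cells (log2 -0.39, adjusted p = 0.141).

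**Figure D5:**
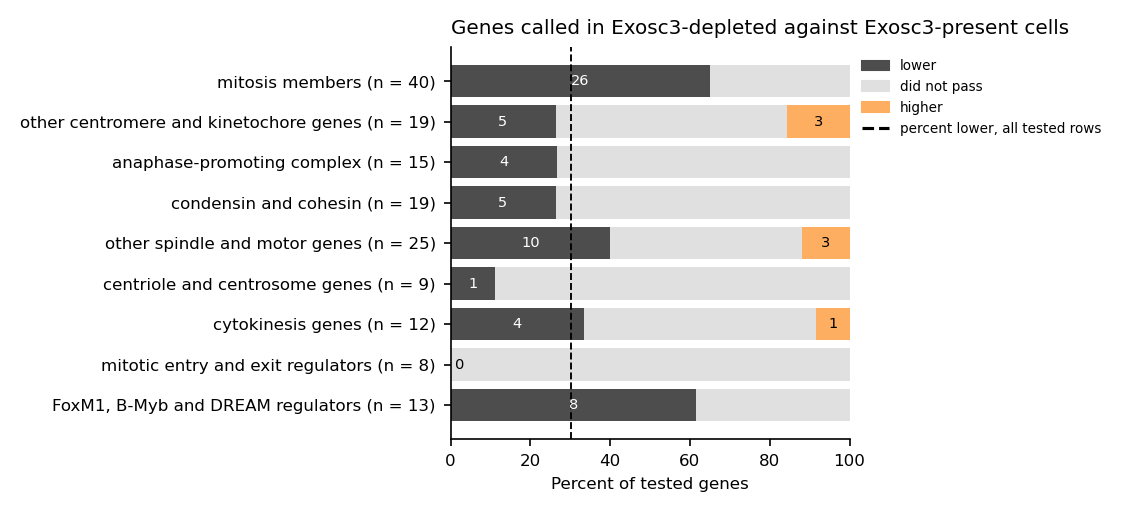
Percent of tested genes called lower (dark), higher (orange) or not called (light) in Exosc3-depleted against Exosc3-present cells, for the 40 mitotic genes and 8 further mitosis lists, with counts in the bars; the dashed line is the 30.1% of all tested rows that fell. The mitotic genes (26 of 40) and the FoxM1, B-Myb and DREAM regulators (8 of 13) reach past the line by the most, and orange parts appear in 3 of the 8 lists.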

How the data were processed

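Ribosome-depleted total RNA of 4 libraries, 2 per group, was sequenced in pairs on stranded libraries, per the labels' protocols. The authors deposited 1 table of FPKM values per gene model and library. The submitters' processing notes name mm9, Bowtie2, STAR, Picard, bedtools and edgeR without their roles; the counting tool, its use of strand and its annotation are not given in the sources used here.

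The FPKM values were tested as log2(FPKM + 0.5) with limma 3.58.1 in R 4.3.3 (trended empirical Bayes, 2 residual degrees of freedom, two-sided). Rows with a mean of at least 0.5 FPKM entered, p-values were Benjamini-Hochberg adjusted over all 9336 rows, and the threshold was 0.05. Fold changes are on the log2(FPKM + 0.5) scale, which understates changes of low genes. The steps between low FPKM values gave whole fragments for all 15471 rows above 0 (tolerance 0.004 fragments or the precision of the printed digits), with 1 fragment on 1 kilobase worth 0.0164 to 0.0262 FPKM, and limma-voom was run on those fragments as an alternative. The fit was also run on simulated data that gave every library the median spread of the Exosc3-present libraries. The Exosc3-depleted libraries spread more (SD of the log2 difference between libraries 0.432, against 0.188 in the Exosc3-present group). That run therefore does not show how the fit behaves at their spread.

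In each role group the 2 genes with the smallest p and the one with the largest p were described in full, and in each wider list the 2 with the smallest p and any called against the list's direction. Further genes of the set are given by values so that all are accounted for. Members, lists and rules were chosen with earlier results of these data known. Other pseudocounts, filters, scalings, variance models, a replicate block and left-out libraries were run as alternatives.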

Additional observations from a re-analysis of the deposited data

How the results depend on the processing

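The mitotic genes called lower numbered 26, and 20 to 27 under other pseudocounts, filters, variance models, median-of-ratios scaling, quantile normalization and limma-voom. They numbered 17 with scaling without the 50 highest rows and 15 to 37 when 1 library was left out, and none was called higher under any setting run. Over all tested rows, 2806 were lower, but 1848 after median-of-ratios scaling, 1782 after quantile normalization, 1330 with scaling without the 50 highest rows and 1082 to 4715 with 1 library left out. Rows called higher numbered 1177, but 667 with a filter at a mean of 2 FPKM, 2106 with the length trend removed (chosen after seeing the data) and 668 to 2183 with 1 library left out. A group left with 1 library is assumed to vary like the other. The log2 fold change changed sign for Ndc80 (0.00 with median-of-ratios scaling, 0.08 with quantile normalization, 0.10 with scaling without the 50 highest rows, 0.07 with the length trend removed), for Bub3 (0.06) and Ppp1cc (0.01) with quantile normalization, and, without Exosc3-depleted replicate 1, for Cenpe (0.01, and -0.71 without Exosc3-depleted replicate 2), Kif11 (0.08, and -0.99) and Ect2 (0.19, and -1.15). The log2 difference of Ccnb2 over Ccnb1 was -0.11, and -0.33 to 0.10 with 1 library left out. The cause of these changes was not tested. Summing the rows of a symbol was not run, since each gene had 1 row.

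The labels give both groups replicate numbers 1 and 2 without saying that a number marks a shared culture or day. Deviations of same-numbered libraries had a correlation of 0.24 across tested rows. With the replicate number as a block, 32 mitotic genes were lower and 0 higher, with 3468 rows lower and 1431 higher.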
